A study of Drosophila melanogaster with 21 samples.

Results

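The synaptic vesicle genes Syngr, nSyb, Syt1, Csp, Syn, cpx, Rab3 and Rph were followed in L1 neurons of the Drosophila melanogaster lamina while these cells matured in the pupa. They were taken by name: all 8 were found among the 7076 genes of the RNA table, and 33 of 26121 open chromatin peaks carried 1 of them as the nearest gene given by the authors. The labels described L1 neurons isolated by fluorescence-activated cell sorting from brains. The genotype of all groups was wild type, and the ages, counted from puparium formation, were 40 h, 60 h and 72 h. Bulk RNA-seq, made by SMART-seq2, had n = 2, 3 and 2 libraries at these ages, and bulk ATAC-seq, which measures open chromatin by transposase insertion, had n = 2 at each. The labels did not give the driver or marker of the sort, the sex or number of the animals, or whether libraries of 1 age came from separate dissections, so p-values measured only the spread between these libraries. The other 8 samples of the series, single-cell libraries, were not analysed here.

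A synaptic vesicle stores transmitter and fuses with the presynaptic membrane when calcium enters the terminal. Its membrane carries the v-SNARE synaptobrevin, the calcium sensor synaptotagmin and tetraspan proteins such as synaptogyrin. Synapsin holds vesicles in clusters, cysteine string protein keeps SNARE proteins folded, complexin binds assembled SNARE complexes, and the GTPase Rab3 with effectors such as rabphilin acts in the placing of vesicles at release sites. L1 is a glutamatergic neuron that receives histaminergic input from photoreceptors, and lamina synapses form during the second part of pupal life, the period sampled here.

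RNA levels were deposited as RPKM, reads per kilobase of gene scaled to a library size set by the authors, so levels of different genes could be compared per length. The sizes used for this scaling, worked back from the deposited values, were 22.1 to 46.1 M in the RNA data and 13.8 to 18.3 M in ATAC. They were not the read depths. In RNA 72 h replicate 1 the size was 23.2 M, but the reads recovered over genes came to 27.6 M. Recovered reads per library ranged between 22.5 M and 39.5 M over genes, and between 12.7 M and 19.8 M over peaks. The 8 genes drew between 105 reads (Rph at 60 h) and 188252 reads (cpx at 72 h) per library. Changes were tested with limma on log2(RPKM + 1) in 1 fit over all genes and the 3 ages, with Benjamini-Hochberg adjustment over 6939 genes, and a gene passed at adjusted p under 0.05. All 8 passed the filter on low values. The log2(RPKM + 1) scale understates changes of genes at low level, so mean RPKM or their ratios are given beside it where levels were low.

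The 8 genes did not move as 1 block. Between 40 h and 60 h, 6 rose (Syngr, Syt1, cpx, nSyb, Rab3 and Csp) and 2 fell (Rph and Syn), and for all 8 the libraries of the 2 ages did not overlap, which was so for 65.8% of all genes tested. Of all genes tested, 25.2% were called higher and 22.5% lower in this interval. Between 60 h and 72 h, 6 rose (Syngr, Rph, cpx, nSyb, Syt1 and Csp), Syn fell and Rab3 did not pass, against 16.6% of all genes called higher and 16.4% lower. From 40 h to 72 h, 6 were higher and 2 lower, against 30.2% and 29.1% of all genes. Of the 6 higher over this span, Rab3 was lower (-0.32, adjusted p = 0.043) under quantile normalization.

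The median log2 change of the 8 genes was 0.69 in the first interval, 0.62 in the second and 1.19 over the whole span. Over all genes tested these medians were -0.0023, -0.014 and -0.0057. The summed level of the 8 genes was 1038 and 1089 RPKM in the 40 h libraries, 1764, 1983 and 1945 RPKM at 60 h, and 3621 and 2871 RPKM at 72 h. As a share of each library's summed RPKM this was 0.261% to 0.297% at 40 h, 0.383% to 0.438% at 60 h and 0.539% to 0.637% at 72 h, without overlap between ages. Since these were bulk samples, fewer cells of a type and less RNA per cell cannot be told apart.

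**Figure D1:**
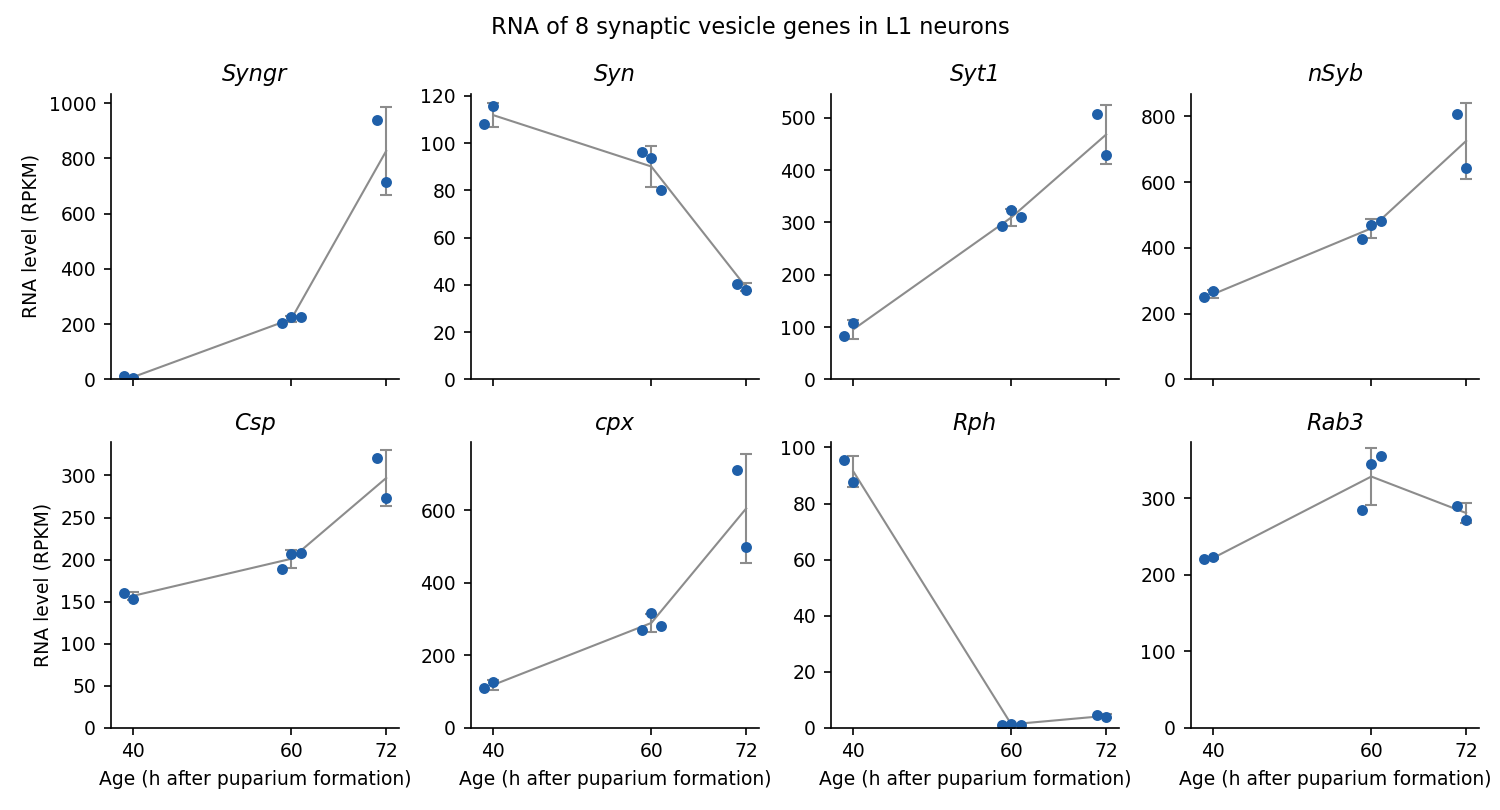
RNA level in RPKM (vertical axis, from 0, a separate scale per gene) against age in hours after puparium formation. Points are single libraries (n = 2, 3 and 2), the line joins the means and bars are SD. Syngr goes from 8.30 to 827 RPKM and Rph from 91.5 to 1.24 and 4.28 RPKM, while Rab3 stays between 221 and 355 RPKM.

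Among the proteins of the vesicle membrane, Syngr, the Drosophila synaptogyrin, had the widest range. Its level was 10.7 and 5.91 RPKM in the 40 h libraries, 204, 224 and 227 RPKM at 60 h, and 940 and 715 RPKM at 72 h. The gene went from the bottom of the 8 to the top: in the order of all 7076 genes by mean level it stood at 4872 at 40 h, at 400 at 60 h and at 107 at 72 h. The ratio of means was 26.3 between 60 h and 40 h, 3.79 between 72 h and 60 h, and 99.6 over the whole span. On the log2 scale Syngr rose by 4.61 ± 0.20 (SE, adjusted p = 2.6e-08) and then by 1.90 ± 0.20 (adjusted p = 5.0e-05).

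Syt1, which encodes the calcium sensor of fast release, was at 82.0 and 108.6 RPKM at 40 h, at 293, 325 and 311 RPKM at 60 h, and at 508 and 428 RPKM at 72 h. It rose by 1.70 ± 0.13 (adjusted p = 2.3e-06) in the first interval and by 0.59 ± 0.13 (adjusted p = 0.0060) in the second. The second rise was not called under quantile normalization (0.23, adjusted p = 0.24), with libraries scaled to equal summed RPKM (0.32, adjusted p = 0.097), without 72 h replicate 1 (0.47, adjusted p = 0.064) or without 60 h replicates 1 and 2 (0.58, adjusted p = 0.089). Over the whole span the ratio of means was 4.91.

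nSyb, the neuronal synaptobrevin, was the most abundant of the 8 at 40 h and at 60 h. Its libraries held 251 and 267 RPKM at 40 h, 427, 471 and 481 RPKM at 60 h, and 807 and 644 RPKM at 72 h. The changes were 0.82 ± 0.12 (adjusted p = 2.2e-04) and 0.65 ± 0.12 (adjusted p = 0.0019), and the ages did not overlap. Under quantile normalization they were 0.37 and 0.36, and the change over the whole span was 0.73 where it was 1.47 with the deposited scaling. The second was not called without 60 h replicates 1 and 2 (0.58, adjusted p = 0.069).

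Csp encodes the cysteine string protein, a DnaJ-type chaperone anchored on the vesicle. It stood at 160 and 154 RPKM at 40 h, 189, 206 and 208 RPKM at 60 h, and 321 and 273 RPKM at 72 h. This was the smallest range among the genes that rose in both intervals. The first change, 0.35 ± 0.10 (adjusted p = 0.017), was not called in 8 of the 15 alternatives, with 0.053 under quantile normalization and 0.10 with equal summed RPKM. Leaving out replicate 2 of 40 h, or replicate 2 or 3 of 60 h, also ended the call (0.32 to 0.33). The second change, 0.56 ± 0.10 (adjusted p = 0.0022), was 0.30 under quantile normalization and 0.29 with equal sums, and was not called without 60 h replicates 1 and 2 (0.51, adjusted p = 0.080). Over the whole span the rise was 0.91 ± 0.11 (adjusted p = 5.3e-05) and was called in all 15 alternatives, with 0.36 under quantile normalization and 0.39 with equal sums.

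Syn, the single synapsin gene of the fly, went the other way. It had 108.2 and 115.5 RPKM at 40 h, 96.2, 93.7 and 80.3 RPKM at 60 h, and 40.2 and 37.7 RPKM at 72 h. The 72 h libraries lay below all others, and Syn fell by 1.18 ± 0.11 (adjusted p = 3.0e-05) in the second interval and by 1.5 ± 0.12 over the whole span. The first step, -0.31 ± 0.11 (adjusted p = 0.042), was not called in 7 of the 15 alternatives, among them those that left out either 40 h library, or replicate 2 or 3 of 60 h (-0.36 to -0.23). Under quantile normalization it was -0.54 (adjusted p = 0.0035) and with equal summed RPKM -0.56 (adjusted p = 0.0016).

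Of the regulators that bind vesicles or SNARE complexes from the cytosol, cpx, the complexin gene, had 109 and 128 RPKM at 40 h, 269, 317 and 281 RPKM at 60 h, and 711 and 498 RPKM at 72 h. It rose by 1.28 ± 0.15 (adjusted p = 4.9e-05) and by 1.04 ± 0.15 (adjusted p = 4.7e-04). The 72 h libraries differed by more than those of the other ages but stayed above every 60 h library.

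Rab3 encodes the small GTPase of synaptic vesicles. Its level was 221 and 223 RPKM at 40 h, 285, 345 and 355 RPKM at 60 h, and 290 and 271 RPKM at 72 h. The 40 h libraries lay below all others, and the 60 h and 72 h libraries overlapped. Rab3 rose by 0.56 ± 0.11 (adjusted p = 0.0022) in the first interval, although not under quantile normalization (0.14, adjusted p = 0.33), and by 0.30 with equal sums. For 72 h against 60 h the change was -0.22 ± 0.11 (adjusted p = 0.17, 95% interval -0.47 to 0.033). It passed as a fall under quantile normalization (-0.46) and with equal summed RPKM (-0.49). Over the whole span the value was 0.34 ± 0.12 (adjusted p = 0.038), which turned to -0.32 under quantile normalization and to -0.19 with equal summed RPKM. That call was also lost without either 40 h replicate, without 60 h replicate 2 and without either 72 h replicate (0.29 to 0.39). Losses also came without a mean trend and without 60 h replicates 1 and 2 together (0.34 in each). In all, this call was lost in 9 of the 15 alternatives.

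Rph, which encodes rabphilin, an effector that binds Rab3 in its GTP form, was the one member that left the upper part of the expression range. It had 95.5 and 87.5 RPKM at 40 h, 1.15, 1.5 and 1.08 RPKM at 60 h, and 4.74 and 3.82 RPKM at 72 h. Behind these values stood 17607 and 16092 reads at 40 h, 131, 132 and 105 reads at 60 h, and 440 and 386 reads at 72 h. Its place in the order of genes went from 803 to 6392 and then to 5591 of 7076. The mean at 60 h was 73.7-fold lower than at 40 h, and that at 72 h was 3.45-fold higher than at 60 h. On the log2 scale Rph fell by 5.37 ± 0.20 (adjusted p = 1.3e-08) and then rose by 1.24 ± 0.20 (adjusted p = 0.0010). The 72 h mean remained 21.4-fold below that at 40 h.

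**Figure D2:**
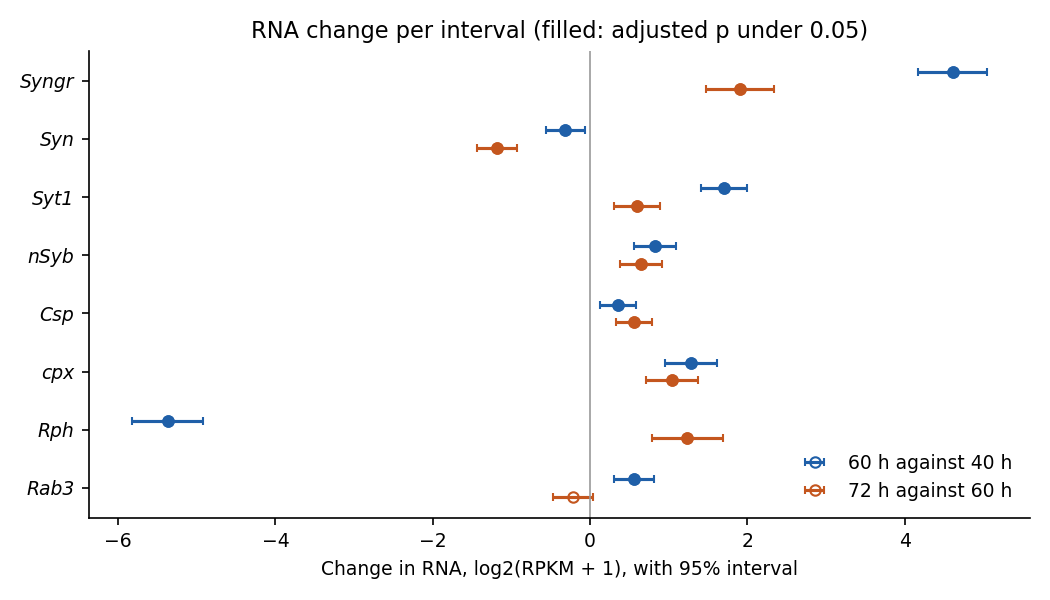
Change in RNA on the log2(RPKM + 1) scale (horizontal axis) for the 8 genes in each interval, with 95% intervals from limma. Filled points passed adjusted p under 0.05 with the deposited scaling. The change of Rab3 between 60 h and 72 h is open (-0.22) but passed as a fall under quantile normalization (-0.46). Under that normalization the changes of Csp and Rab3 between 40 h and 60 h were not called. Nor was that of Syt1 between 60 h and 72 h.

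The order of the 8 genes by level was thus rearranged. At 40 h it ran nSyb, Rab3, Csp, cpx, Syn, Syt1, Rph and Syngr, and the libraries of cpx and Syn, of Syn and Syt1, and of Syt1 and Rph overlapped. At 60 h it ran nSyb, Rab3, Syt1, cpx, Syngr, Csp, Syn and Rph, with overlap between Rab3 and Syt1, between Syt1 and cpx, and between Syngr and Csp. At 72 h it ran Syngr, nSyb, cpx, Syt1, Csp, Rab3, Syn and Rph. There the neighbours from Syngr to Syt1 overlapped in turn, as did Csp and Rab3, while Syn (39.0 ± 1.8 RPKM, SD, n = 2) and Rph (4.28 ± 0.65 RPKM) stood apart.

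Across the 7 libraries, which share 3 ages, log2(RPKM + 1) of nSyb and cpx correlated at 0.997, of Syngr and Syt1 at 0.979 and of nSyb and Csp at 0.972. Syn correlated with Csp at -0.949, and Rph with Rab3 at -0.903. Among 4618 other genes with a mean of at least 10 RPKM, the profile most like that of Syngr was GC1 (0.999; 8.32, 95.5 and 279 RPKM at the 3 ages), and CG32544 (32.7, 126 and 213 RPKM) was also among its 3 closest. Syn was closest to CG17270 (0.998; 196, 164 and 68.4 RPKM), CG17778 and Acn.

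Syt1 was closest to PrBP (0.999), Nc73EF and qvr, nSyb to Nhe3 (0.998), cno and crq, and cpx to CaMKII (0.998), Nhe3 and Vti1a. The nearest profiles to Csp were CG15186 (0.996), EloA and CG5676. For Rph they were oaf (0.997; 404, 69.0 and 101 RPKM), wrd and Hr4, and for Rab3 CG7492 (0.971), Rim2 and dlg1. With 7 points in 3 groups, such values describe a shared time course and carry no test.

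The sorted cells expressed VGlut (207 to 700 RPKM), svp (109 to 139 RPKM) and elav (21.9 to 74.1 RPKM) in every library. These markers did not move together. Mean VGlut was 216, 312 and 609 RPKM at the 3 ages, while mean elav was 68.8, 24.7 and 22.6 RPKM. Mean svp was 120.4, 114.7 and 130.5 RPKM and passed in no comparison. Genes of other cells were present too. The summed level of 12 photoreceptor markers was 37.9 and 129 RPKM at 40 h, 323, 631 and 102 RPKM at 60 h, and 51.4 and 166 RPKM at 72 h, with chp highest at 40 h and 60 h and ninaE at 72 h. Arr1, an arrestin, was listed at 0 in 1 of the 40 h libraries. Of these 12 markers 3 rose and 1 fell at 60 h, beside 25.2% and 22.5% of all genes. Then 1 rose and 4 fell from 60 h to 72 h, beside 16.6% and 16.4% of all genes. The 8 glial markers in the table summed to 23.8 and 39.5 RPKM at 40 h and 86.2, 43.0 and 65.0 RPKM at 60 h. At 72 h they summed to 547 and 1665 RPKM, with Gs2 (220 and 826 RPKM) highest. Between 60 h and 72 h 6 of the 8 rose, beside 16.6% of all genes.

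At 60 h, replicate 3, with the least photoreceptor RNA, held the highest value of 4 of the 8 genes, and replicate 2, with the most, held that of 3, while replicate 1 was lowest for 6 of 8. Without 60 h replicates 1 and 2, 1 library stood for that age and was assumed to vary like those of the other ages. The change of Syngr by 60 h was then 4.67 (adjusted p = 1.0e-06) and that of Rph -5.47 (adjusted p = 3.1e-07). In that fit 4 rather than 7 of the 8 genes were called between 60 h and 72 h, although the changes that were no longer called (0.58 for Syt1, 0.58 for nSyb and 0.51 for Csp) were close to those in all libraries (0.59, 0.65 and 0.56). At 72 h replicate 1, with the lower glial sum, was the higher one for all 8 genes. Its summed RPKM over all genes was also higher than that of replicate 2 (568152 against 532621). The shares of all genes with the same order of libraries were not computed at 60 h or 72 h. Without 72 h replicate 2, Syngr rose by 2.1 and cpx by 1.30 between 60 h and 72 h. Without 72 h replicate 1 they rose by 1.71 and 0.79.

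Markers of cholinergic, GABAergic and aminergic neurons, 6 in the table, summed to 26.9 to 38.2 RPKM at 40 h and 60 h and to 117 and 91.6 RPKM at 72 h, of which VGAT made up 83.9 and 65.9 RPKM. From 60 h to 72 h 4 of the 6 rose, beside 16.6% of all genes. Markers of the other lamina neurons, 3 in the table, summed to at most 10.7 RPKM, the hemocyte gene Hml reached at most 0.455 RPKM and was listed at 0 in 72 h replicate 1, and the muscle gene Mhc reached at most 1.31 RPKM. The part of these other cells in the changes of the 8 genes was not tested beyond the fits without single libraries.

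The summed RPKM of the RNA libraries rose with age: taking 40 h replicate 1 as 100%, it was 112% to 116% at 60 h and 134% to 143% at 72 h. Scaling all libraries to equal sums therefore moved the median of all genes by -0.24 (first interval), -0.25 (second interval) and -0.49 (whole span). The numbers of genes called higher and lower went from 1748 and 1564 to 1288 and 2382, from 1150 and 1140 to 720 and 2131, and from 2097 and 2018 to 1301 and 3353. Relative to that shift, Syngr, Syt1, cpx and nSyb were still called higher over the whole span under both other scalings, and Rph and Syn lower, and so was Csp higher (0.36 or more).

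Other genes of the vesicle cycle were read from lists drawn up by role. Beside their counts stand the shares of all genes, which with the deposited scaling were 25.2% higher and 22.5% lower by 60 h, and 16.6% and 16.4% from 60 h to 72 h. With equal sums they were 18.6% and 34.3%, then 10.4% and 30.7%, and under quantile normalization 24.9% and 25%, then 14.4% and 17.5%.

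All 5 tested members of the synaptotagmin family besides Syt1 rose between 40 h and 60 h with the deposited scaling, and 4 of 5 did so under quantile normalization and with equal sums, Syt4 being the exception (25.2%, 24.9% and 18.6% of all genes rose). Syt12 went from 32.2 to 330 RPKM, a change of 3.32 ± 0.12 (adjusted p = 9.9e-09), and fell to 140 RPKM at 72 h (-1.23 ± 0.12). Syt7, known in mammals as a slow calcium sensor, rose by 1.06 ± 0.17 and then by 0.64 ± 0.17. Esyt2, an extended synaptotagmin, was at low level (means of 1.13, 3.43 and 10.9 RPKM at the 3 ages). It rose by 1.07 ± 0.35 and 1.49 ± 0.35, and the second rise was not called without 60 h replicates 1 and 2 (1.08). In the second interval 3 of the 5 rose and Syt12 fell, while with equal sums 1 rose.

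Of 8 other vesicle membrane proteins, 2 rose in the first interval and the other 6 did not pass, a share near the 25.2% of all genes that rose, and with equal sums 1 rose and 3 fell. Vha100-1, a subunit of the proton pump that fills vesicles, rose by 1.14 ± 0.10 (133 to 292 RPKM). VGlut, the glutamate transporter of L1, rose by 0.53 ± 0.14, a call lost under quantile normalization (0.088) and with equal sums (0.27). In the second interval 5 of 8 rose, led by VGAT (22.0 to 74.9 RPKM), VAChT (2.35 to 7.23 RPKM) and Atg9 (8.63 to 19.3 RPKM), and VGlut rose by 0.95 ± 0.14. VGAT and VAChT belong to other transmitter systems and were also counted above as markers.

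The SNARE fusion machinery list, with 10 tested members, had 6 that rose and 4 that did not pass at 60 h, where 25.2% of all genes rose and 22.5% fell, and 4 that rose and 1 that fell under either other scaling. comt, the NSF ATPase that takes SNARE complexes apart, rose by 1.69 ± 0.13 (99.4 to 322 RPKM). Snap25, a t-SNARE that pairs with nSyb, rose by 1.19 ± 0.11 (99.9 to 228 RPKM), and Rop, the Munc18 homologue, by 1.02 ± 0.13 (323 to 652 RPKM). Between 60 h and 72 h 5 rose and Sec22, a SNARE of the early secretory pathway, fell by 0.46 ± 0.12. unc-104, the kinesin that carries vesicle precursors, rose by 0.48 ± 0.13 in that interval. With equal sums 1 of the 10 rose there and 2 fell, and with 60 h replicate 3 as the one library of its age 1 rose.

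Of 17 tested genes of vesicle endocytosis, 14 rose and 1 fell at 60 h, beside 25.2% and 22.5% of all genes, and 12 rose and 2 fell under either other scaling. Amph, the amphiphysin gene, went from 11.3 to 145 and 273 RPKM (3.56 ± 0.15, adjusted p = 2.1e-08, in the first interval). shi, the dynamin gene, rose by 1.84 ± 0.13 and then by 0.75 ± 0.13, and aux, the auxilin gene, rose by 1.33 ± 0.12 at 60 h, while nwk, which encodes an F-BAR protein, rose by 1.77 ± 0.15 over the whole span. The 1 gene that fell was lqf, the epsin gene (-0.52 ± 0.16). Between 60 h and 72 h 6 rose and 11 did not pass, EndoA rising by 1.00 ± 0.13, but 3 rose and 3 fell with equal sums.

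Of 7 tested members of the Rab3 cycle list, 2 rose and 2 fell at 60 h, shares near the 25.2% and 22.5% of all genes, and 2 rose and 4 fell under either other scaling. The exchange factor gene Rab3-GEF fell from 21.7 to 5.54 RPKM (-1.79 ± 0.19, adjusted p = 2.4e-05), and the active zone Rab3 effector Rim fell from 30.4 to 7.83 RPKM (-1.80 ± 0.22, adjusted p = 5.5e-05). Both then rose, Rab3-GEF by 1.24 ± 0.19 to 14.5 RPKM and Rim by 1.08 ± 0.22 to 17.6 RPKM. These 2 genes and Rph thus had a low point at 60 h, as did Pka-R2 of the kinase list. The share of all genes with such a low point was not computed. Rbcn-3A and Rbcn-3B, the rabconnectin genes, rose by 1.13 ± 0.20 and 1.15 ± 0.14 in the first interval.

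In the active zone list, with 7 tested members, 3 rose and 1 fell at 60 h (25.2% and 22.5% of all genes), and with equal sums 2 rose and 1 fell (18.6% and 34.3%). The gene that fell with the deposited scaling was Rim, already counted in the Rab3 cycle list. The gene unc-13, which passed in neither interval, stood in the active zone, Rab3 cycle and fusion lists, so these counts are not independent. Rbp, the RIM-binding protein gene, rose from 5.64 to 45.3 RPKM (2.86 ± 0.24). The calcium channel gene cac rose by 0.92 ± 0.24 (adjusted p = 0.057 with equal sums). From 60 h to 72 h the scaffold genes brp and Liprin-alpha fell by 1.09 ± 0.12 and 0.72 ± 0.14, and brp, like Syn, was lowest at 72 h (23.0 RPKM).

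Among 8 kinases and chaperones that act on vesicle proteins, 3 rose and 1 fell at 60 h, also under the other scalings. The shares of all genes were 25.2% and 22.5% with the deposited scaling. They were 18.6% and 34.3% with equal sums, and 24.9% and 25% under quantile normalization. CaMKII, a kinase that phosphorylates synapsin, rose by 0.90 ± 0.11 and then by 0.72 ± 0.11. Hsc70-4, the chaperone that works with Csp, rose from 1228 to 1815 RPKM (0.57 ± 0.12) and then fell to 1436 RPKM (-0.34 ± 0.12, adjusted p = 0.049). Without 72 h replicate 2 the fall was not called (-0.34). Without 60 h replicates 1 and 2 neither the rise (0.55) nor the fall (-0.32) was called. Sgt, a co-chaperone of that pair, rose by 0.73 ± 0.12 and fell by 0.60 ± 0.12. Pka-R2, a regulatory subunit of protein kinase A, fell by 0.97 ± 0.17 and then rose by 1.23 ± 0.17. The catalytic subunit gene Pka-C1 rose by 0.68 ± 0.18 in the second interval, a call lost with equal sums. The kinase gene Cdk5 rose by 0.57 ± 0.16 over the whole span. That change was 0.056 (adjusted p = 0.80) with equal sums, and it was not called without 72 h replicate 2 (0.50).

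Open chromatin was read from peaks called once over merged libraries, as level per kilobase of peak. The 33 peaks were 9 for cpx, 5 each for Csp and Rab3, 4 each for Syn, Syt1 and Rph, and 1 each for Syngr and nSyb, and held 77 to 11403 reads per library. Of these, 10 lay at distance 0 from a gene start by the authors' column, 3 of them at cpx, and 32 passed the filter on low values (1 distal Syt1 peak did not). Positions are as deposited, on a genome build that the labels and tables do not name, and exons and introns under the peaks were not assigned.

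Between 40 h and 60 h, 2 of the 32 peaks rose and 7 fell, against 10.7% and 16% of all 23508 peaks tested. Between 60 h and 72 h 1 rose and limma called 0 lower, against 0.723% and 4.39% of all peaks. At an unadjusted p under 0.05, 2 were higher and 6 lower in that interval. The 1 call was lost without either 40 h library, without 60 h replicate 1 and without either 72 h library, and without 60 h replicate 2 there were 5 calls. From 40 h to 72 h 6 rose and 16 fell (26% and 29.4% of all peaks). The median log2 change of the 32 peaks was -0.24, -0.22 and -0.54 in the 3 comparisons, beside 0.080, -0.029 and 0.035 over all peaks.

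**Figure D3:**
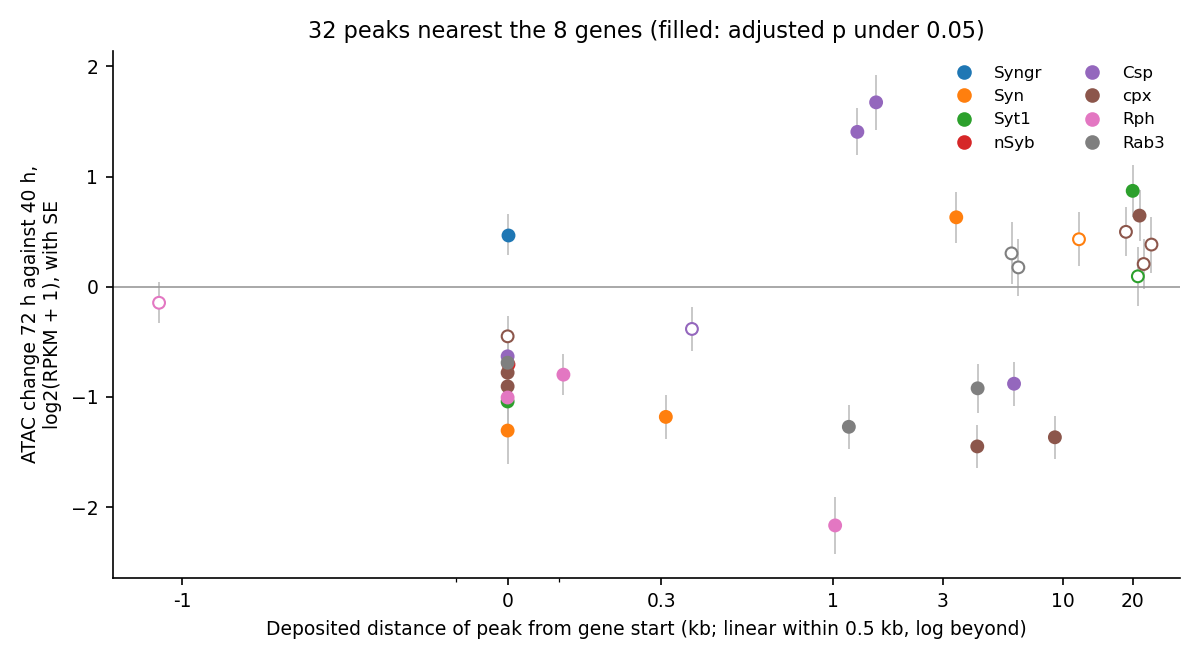
Change in open chromatin between 40 h and 72 h on the log2(RPKM + 1) scale (vertical axis) against the deposited distance of each peak from the gene start in kb (horizontal axis, linear near 0 and logarithmic beyond). Points are the 32 tested peaks coloured by gene, filled where adjusted p was under 0.05, and bars are SE; 16 filled points lie below 0 and 6 above it with the deposited scaling, against 6 and 6 under quantile normalization.

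With every library set to the same summed signal over peaks, the median of all peaks moved by 0.23 in the first interval, 0.17 in the second and 0.40 over the whole span. From 40 h to 72 h, the numbers of peaks called higher and lower over the genome went from 6108 and 6908 to 10097 and 4885. Under quantile normalization they were 5173 and 5053.

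Peaks at gene starts were tested with the deposited scaling first. Of the 10 at distance 0, 1 was higher and 8 lower at 72 h than at 40 h, while of all 6068 tested peaks at distance 0 5.47% were higher and 32.9% lower. The median change was -0.74 for the 10 peaks and -0.31 for all peaks at distance 0. Under quantile normalization the start peaks of nSyb, Csp and Rab3 and 2 of the 3 of cpx changed sign over this span.

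**Figure D4:**
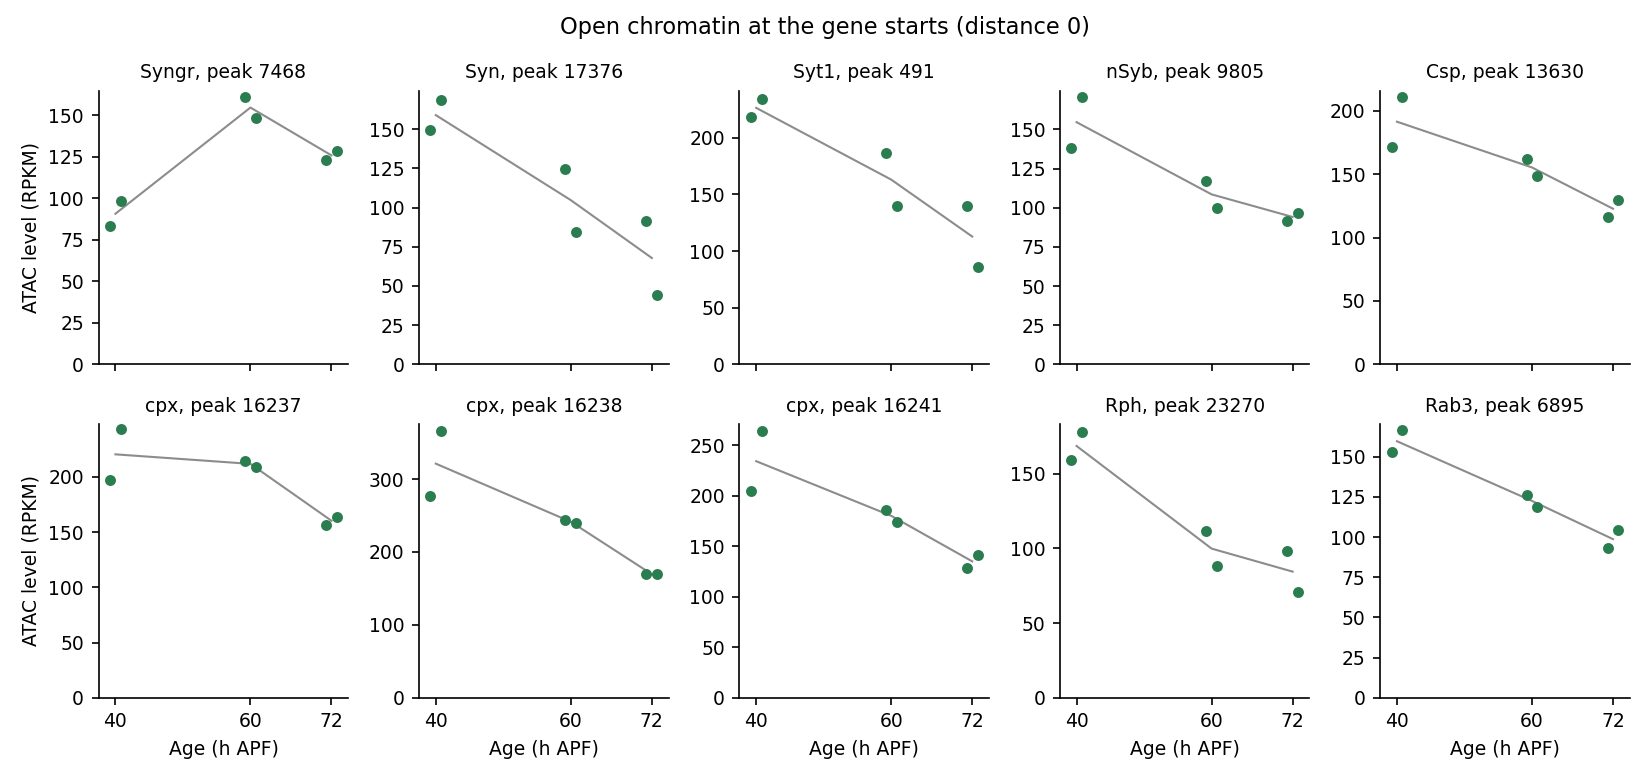
ATAC level in RPKM (vertical axis, from 0, a separate scale per peak) against age in hours after puparium formation for the 10 peaks at distance 0. Points are single libraries (n = 2 per age) and the line joins their means; the Syngr peak is highest at 60 h (161 and 148 RPKM), and the means of the others are lowest at 72 h with the deposited scaling.

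The peak over the start of Syngr (2R:13845434-13846522) held 83.2 and 98.3 RPKM at 40 h, 161 and 148 RPKM at 60 h, and 123 and 128 RPKM at 72 h. The 3 ages did not overlap, and it was the one start peak called higher in the first interval with the deposited scaling, by 0.77 ± 0.18 (adjusted p = 0.0085), a call kept in all 12 alternatives. Under quantile normalization 1 cpx start peak was called higher too (0.42, adjusted p = 0.0071). The change of the Syngr start peak from 60 h to 72 h was -0.29 (adjusted p = 0.35), and 0.13 under quantile normalization. From 40 h to 72 h it was 0.47 ± 0.18 (adjusted p = 0.048), with 1.16 under quantile normalization and 0.88 with equal sums, a call lost in 7 of the 12 alternatives, among them those without 40 h replicate 1 or without any 1 of the 60 h and 72 h libraries.

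At the nSyb start (3L:1636476-1637858) the level was 138 and 171 RPKM at 40 h, 117 and 100.1 RPKM at 60 h, and 91.4 and 96.8 RPKM at 72 h. The value for 72 h against 40 h was -0.70 ± 0.19 (adjusted p = 0.010), and 0.057 under quantile normalization. With equal sums, without 40 h replicate 2 and without either 72 h library it was also not called.

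At the Syt1 start (2L:2798543-2800606) the libraries held 219 and 234 RPKM, then 186 and 140 RPKM, then 140 and 85.6 RPKM. The 40 h libraries lay above all others, and the change over the whole span was -1.04 ± 0.24 (adjusted p = 0.0044), not called under quantile normalization (-0.19), without 40 h replicate 2 or without 72 h replicate 2 (-0.69), and -0.64 with equal sums. A distal Syt1 peak, 19993 bases from the start by the deposited column, went the other way, with 24.9 and 24.3 RPKM at 40 h, 27.8 and 36.7 RPKM at 60 h, and 46.0 and 45.6 RPKM at 72 h. Its change over the span was 0.87 ± 0.24 (adjusted p = 0.0098), lost without either 40 h library or without 72 h replicate 2.

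Csp had peaks that moved in opposite directions within a short stretch of chromosome 3L. Its start peak (3L:22267146-22267740) held 172 and 211 RPKM at 40 h, 162 and 149 RPKM at 60 h, and 116 and 130 RPKM at 72 h, a change of -0.63 ± 0.19 over the span (adjusted p = 0.015) that turned to 0.24 under quantile normalization. It was also not called with equal sums, without 40 h replicate 2 or without either 72 h library. A pair of neighbouring peaks 1276 and 1539 bases from the start opened. The nearer (3L:22268658-22268919) went from 33.1 and 34.9 RPKM through 45.7 and 56.0 RPKM to 82.8 and 102 RPKM, and the farther (3L:22268921-22269128) from 27.0 and 25.6 RPKM through 41.9 and 61.1 RPKM to 72.4 and 102 RPKM.

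In both, the 3 ages did not overlap, and the rise over the span was 1.41 ± 0.21 (adjusted p = 2.7e-04) for the nearer and 1.67 ± 0.25 (adjusted p = 2.6e-04) for the farther, kept in all 12 alternatives. The nearer one was the peak called between 60 h and 72 h (0.85 ± 0.21, adjusted p = 0.045), and the farther was called between 40 h and 60 h (0.92 ± 0.25, adjusted p = 0.017), a call lost under quantile normalization and without either 40 h library or 60 h replicate 2. Another Csp peak, 6108 bases from the start, fell by 0.88 ± 0.20 over the span (adjusted p = 0.0034), with -0.48 for equal sums and -0.32, not called, under quantile normalization.

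At Syn, whose RNA fell, the start peak (3R:10190198-10190996) held 149 and 168 RPKM at 40 h, 125 and 84.6 RPKM at 60 h, and 91.5 and 44.1 RPKM at 72 h. The libraries of 60 h and 72 h overlapped, and the change over the span was -1.31 ± 0.31 (adjusted p = 0.0044), not called under quantile normalization (-0.79) or without 40 h replicate 2, and -0.79 without 72 h replicate 2. The adjoining peak, 309 bases away, held 78.7 and 94.8 RPKM, then 61.4 and 59.8 RPKM, then 38.1 and 37.0 RPKM. It fell by 1.18 ± 0.20 (adjusted p = 5.8e-04) without overlap between ages, in all 12 alternatives (-0.78 with equal sums). A weaker peak 3429 bases away rose by 0.63 ± 0.23 (adjusted p = 0.038; 1.03 with equal sums), a call lost under quantile normalization and without any 1 of the 40 h and 72 h libraries.

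Of the 9 cpx peaks, 5 held at least 83.1 RPKM in every library and the 4 most distant at most 47.0 RPKM. At the main start peak (3R:4280497-4282657) the level was 277 and 366 RPKM at 40 h, 244 and 239 RPKM at 60 h, and 170 and 169 RPKM at 72 h, and the change over the span was -0.90 ± 0.19 (adjusted p = 0.0023), not called under quantile normalization (-0.16) and -0.50 with equal sums. The adjoining start peak (3R:4279808-4280495) held 197 and 244 RPKM, then 215 and 209 RPKM, then 157 and 164 RPKM. It did not pass (-0.45, adjusted p = 0.056) and was called higher under quantile normalization both by 60 h (0.42, adjusted p = 0.0071) and by 72 h (0.43, adjusted p = 0.0037). The remaining peak at distance 0 (3R:4290968-4292769) went from 204 and 264 RPKM to 128 and 142 RPKM (-0.78 ± 0.19, adjusted p = 0.0057), which became 0.13 under quantile normalization and -0.37 with equal sums, and was not called without 72 h replicate 1.

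The largest falls at cpx with the deposited scaling lay away from the starts. A peak 4230 bases off (3R:4284451-4285193) held 229 and 296 RPKM at 40 h, 145 and 132 RPKM at 60 h, and 87.5 and 103 RPKM at 72 h, a fall of 0.91 ± 0.20 (adjusted p = 0.0048) by 60 h and of 1.45 ± 0.20 (adjusted p = 1.3e-04) by 72 h. A peak 9188 bases off (3R:4289409-4290536) held 190 and 245 RPKM, then 111 and 102 RPKM, then 83.1 and 83.2 RPKM, with a fall of 1.01 ± 0.19 and then 1.37 ± 0.19 against 40 h. These 4 calls were kept in all 12 alternatives, but under quantile normalization the values were -0.41 and -0.61 for the nearer peak and -0.51 and -0.60 for the farther. The RNA of cpx rose 5.11-fold over the span. Of the 4 weak peaks 18691 to 24123 bases away, 1 rose over the span (0.65 ± 0.23, adjusted p = 0.034; 1.04 with equal sums), a call lost under quantile normalization and without any 1 of the 40 h and 72 h libraries.

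At Rph chromatin and RNA were both lower after 40 h. The peak 1022 bases from the start (X:10756372-10756644) held 115 and 127 RPKM at 40 h, 41.8 and 28.7 RPKM at 60 h, and 32.1 and 21.4 RPKM at 72 h. It fell by 1.78 ± 0.26 (adjusted p = 3.1e-04) by 60 h and by 2.17 ± 0.26 (adjusted p = 5.3e-05) by 72 h, the largest falls among the 32 peaks, in all 12 alternatives.

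The start peak of Rph (X:10757559-10758925) held 159 and 178 RPKM, then 112 and 88.2 RPKM, then 98.4 and 70.6 RPKM. Its fall was 0.76 ± 0.22 by 60 h (adjusted p = 0.023), not called under quantile normalization, with equal sums, or without either 40 h library or 60 h replicate 2, and 1.01 ± 0.22 by 72 h (adjusted p = 0.0027), which was -0.60 with equal sums and not called under quantile normalization (-0.29). The peak 109 bases away held 144 and 156 RPKM, then 76.2 and 82.9 RPKM, then 91.0 and 80.8 RPKM, a fall of 0.91 ± 0.18 by 60 h (adjusted p = 0.0032) that was not called under quantile normalization (-0.47). Between 60 h and 72 h, where Rph RNA rose, none of its 4 peaks passed, with changes from -0.39 to 0.11. The peak on the other side of the start, at -1261 bases, stayed between 76.5 and 92.5 RPKM.

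At Rab3 the start peak (2R:10728543-10729387) held 153 and 167 RPKM at 40 h, 126 and 119 RPKM at 60 h, and 93.0 and 104.3 RPKM at 72 h. The ages did not overlap, and the change over the span was -0.69 ± 0.18 (adjusted p = 0.0080), which became 0.091 under quantile normalization and was not called with equal sums or without 72 h replicate 1. The peak 1172 bases away (2R:10727328-10728031) held 114 and 133 RPKM, then 74.0 and 61.3 RPKM, then 47.6 and 53.6 RPKM, and fell by 1.27 ± 0.20 (adjusted p = 3.8e-04), in all 12 alternatives. The peak 4245 bases away fell by 0.92 ± 0.23 over the span (adjusted p = 0.0054), though not when 40 h replicate 2 was left out, and was -0.52 with equal sums.

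**Figure D5:**
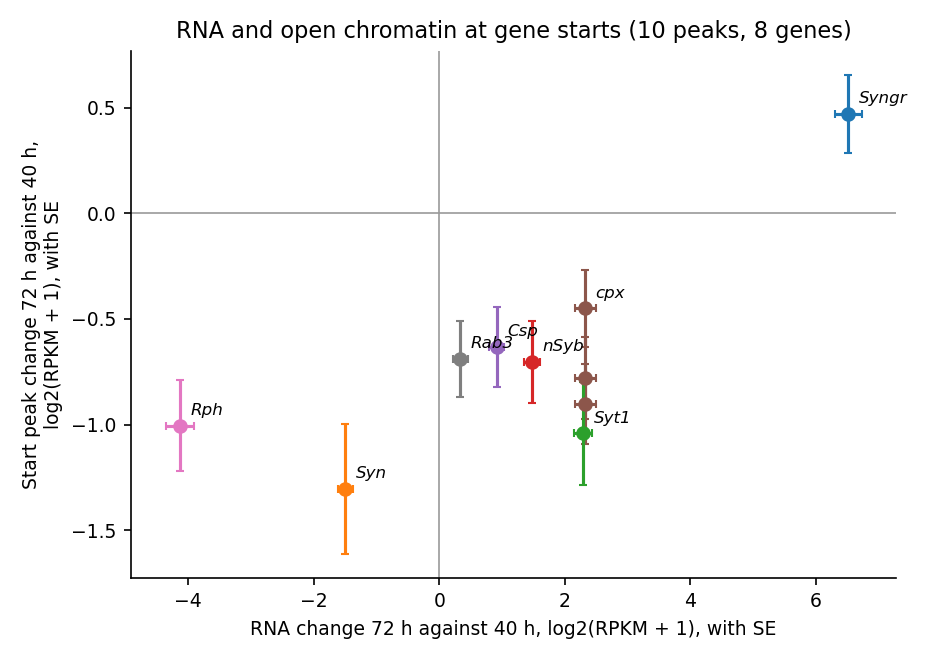
Change of the 10 start peaks (vertical axis) against change of RNA (horizontal axis) between 40 h and 72 h, both on the log2(RPKM + 1) scale with the deposited scaling, with SE; cpx has 3 peaks. Syngr lies to the upper right (6.51 and 0.47), Rph and Syn to the lower left, and the other 5 genes to the lower right, where the peak changes of nSyb, Csp, Rab3 and 2 of cpx turn above 0 under quantile normalization and the RNA change of Rab3 below 0.

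Set beside each other, RNA and start peaks moved the same way over the whole span in Syngr, Syn and Rph, and in opposite directions in nSyb, Syt1, Csp, Rab3 and cpx with the deposited scaling. No statistic was computed across the 8 genes. The libraries of the 2 assays were separate samples, and the part of other cells in the ATAC libraries was not tested.

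Some of these genes share their place with others in the RefSeq Release 6 annotation, and no source used here states whether reads were counted by strand, so reads of overlapping genes cannot be told apart. The gene ras, which encodes an IMP dehydrogenase, overlaps Rph and rose from 37.4 to 53.9 RPKM (0.51 ± 0.12, adjusted p = 0.0050) while Rph fell. Nepl11, which overlaps cpx, and CAH13, which overlaps Rab3, stayed below 3 RPKM on average at each age. Timp overlaps Syn, lncRNA:CR43821 overlaps Syt1, sisRNA:3 overlaps Csp and mir-929 overlaps cpx. These genes were absent from the RNA table, so their levels could not be read. Of the genes beside the members, stan, next to Rab3, fell from 21.9 to 0.763 RPKM, and CG11523, next to Csp, rose from 2.50 to 13.2 RPKM by 60 h.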

How the data were processed

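Sorted L1 neurons gave 7 libraries of RNA and 6 of open chromatin, grouped by the age in the labels. RNA levels were deposited by the authors as RPKM per gene. ATAC levels per peak were deposited by the authors without a stated unit and were read as RPKM, because 100% of values, multiplied by the width of the peak, were whole multiples of 1 read (tolerance 0.1 read). The submitters' processing notes name Bowtie2 2.2.9, MACS2 2.1.1, bedtools and edgeR 3.26.8 without giving their roles. Peaks were 1 set over merged libraries, per the peak names in the deposited table.

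Values were taken to log2(RPKM + 1). Genes with at least 1 RPKM in at least 2 libraries (6939 of 7076) and peaks above the lowest 10% by mean (23508 of 26121) were tested with limma 3.58.1 in R 4.3.3, with a mean trend, 1 fit per assay over the 3 ages, two-sided tests and Benjamini-Hochberg adjustment over all features at 0.05. The residual degrees of freedom were 4 and 3. The fit was tested on simulated data. Whole reads were recovered for 7074 of 7076 genes (tolerance 0.02) and used in a voom alternative. Same-numbered libraries deviated together in no regular way (correlations of -0.046 to 0.22 for RNA and -0.47 to 0.55 for ATAC), so numbers were not taken as pairs.

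The genes, the gene lists and the tests were chosen with earlier results of these data known. Named genes were the 8 members, the 3 most similar profiles per member, and from each list at most 3 called genes of the largest change per comparison. Other genes in the text (lqf, Sec22, Syt4, Hsc70-4, neighbours of the members) were chosen after their values were seen. The alternatives were another pseudocount (0.1), no filter, quantile normalization, equal summed values, no mean trend, a replicate block and leaving out libraries. Leaving out 60 h replicates 1 and 2 together was chosen knowing their photoreceptor RNA. Sequences and promoter motifs were not analysed here.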

Additional observations from a re-analysis of the deposited data

How the results depend on the processing

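Of 23 called RNA changes of the 8 genes, 16 kept their call under all 15 alternatives, and of 32 called peak changes 11 did so under all 12. The RNA changes that lost calls belonged to Syn, Csp and Rab3 (60 h against 40 h), Syt1, nSyb and Csp (72 h against 60 h) and Rab3 (72 h against 40 h). RNA counts of called genes were 6 to 8, 6 to 7 and 7 to 8 of 8 with 1 library left out. The 72 h against 60 h count was 4 without 60 h replicates 1 and 2. Peak counts with 1 library left out were 5 to 11 (60 h against 40 h), 0 to 5 (72 h against 60 h) and 14 to 21 (72 h against 40 h). Under quantile normalization they were 5, 2 and 12, and without a mean trend the 72 h against 60 h count was 0.

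Rab3 RNA for 72 h against 40 h reversed to -0.32 under quantile normalization and to -0.19 with equal sums. Under quantile normalization these start peaks also reversed. For 60 h against 40 h the values became 0.17 (Csp), 0.42, 0.0042 and 0.11 (cpx), 0.0091 (Syt1) and 0.066 (Rab3). The first cpx peak was also 0.19 with equal sums and between -0.20 and 0.10 with 1 library left out (0.10 without 40 h replicate 2). For 72 h against 60 h they became 0.076 (Csp), 0.019 and 0.019 (cpx), 0.0064 (Rph), 0.025 (Rab3), 0.13 (Syngr) and 0.12 (nSyb). For 72 h against 40 h they became 0.24 (Csp), 0.43 and 0.13 (cpx), 0.091 (Rab3) and 0.057 (nSyb). The cause was not tested. With the replicate block the RNA counts were 6, 7 and 8 and the peak counts 10, 1 and 21. The calls of Syn RNA (-0.23, adjusted p = 0.17), Csp RNA (0.33, adjusted p = 0.061; both 60 h against 40 h) and the Syngr peak (0.47, adjusted p = 0.090; 72 h against 40 h) were lost with that block.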
